A study of Mus musculus with 12 samples.

Results

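The 5′ tRNA-halves of tRNA-Gly-GCC, called tiRNAs here for their length alone, are 16 of the 2971 small RNA sequences tabulated for mouse sperm, and those members of the 1083-sequence Gly-GCC family that start at base 1 and run at least to the middle base of the anticodon. The enzyme that cut them and their 3′ partners were not measured. They were chosen by measured values and by sequence. The sequence ranked 2 by its mean over all 12 libraries, a 28-nt Gly-GCC fragment at 116532 RPM (reads scaled to a common library total), was the starting point. The most abundant sequence of at least 34 nt that begins with it, at a mean of 1938 RPM, is called the leading tiRNA below. The family holds the sequences that align inside the leading tiRNA with at most 2 edits, and the tiRNAs are those that start at its base 1 and are 34 nt or longer. The mean levels that ranked these 2 sequences are therefore a description and were not tested. Differences between groups were tested for both, as for every other sequence, in the same libraries.

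Small RNA was sequenced from histone replacement-completed sperm (HRCS), in which protamines have taken the place of histones. Sperm came from the caudal epididymis and vas deferens and were pelleted through 82% Percoll after sonication had parted heads from tails. Males were fed from week 3 to week 12 of age, in 4 groups of 3 libraries: ATF7+/- on low protein diet (LPD), ATF7+/- on control diet (CD), wild type on LPD and wild type on CD. ATF7+/- animals are heterozygous for Atf7, the gene of a stress-responsive transcription factor. The strain, the kind of mutant allele and whether each library came from its own animal are not given in the labels, so p-values measure the spread between these libraries, which may be technical. The tabulated sequences are tRNA fragments, so neither the Atf7 level nor sperm marker genes could be checked in them.

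A tRNA carries an amino acid to the ribosome and reads the matching codon with its anticodon, the 3 bases at the tip of the anticodon loop. Cleavage in that loop parts the tRNA into 5′ and 3′ tRNA-halves, and angiogenin is the best known enzyme that makes such cuts in stressed mammalian cells. Mature mammalian sperm are rich in 5′ fragments of tRNA-Gly and tRNA-Glu, which are gained during passage through the epididymis, and earlier work in mice linked 5′ tRNA-Gly-GCC fragments to paternal low protein diet.

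The sequences of the 8 tiRNAs whose values are given by library follow, since they show where each tabulated sequence stops and which base it carries there. A ninth, with G after the anticodon, is included because its diet groups did not overlap in either genotype, with differences of opposite sign. The last, of 33 nt, stops 1 base short of the limit and is not counted among the tiRNAs. Capitals mark bases 33 to 35, read as the GCC anticodon after T32 in the leading tiRNA, as far as each sequence reaches them, and any other base that differs from the leading tiRNA. Positions count from 1 at the 5′ end of the leading tiRNA.
Leading tiRNA, 35 nt: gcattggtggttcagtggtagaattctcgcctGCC
G6T tiRNA, 35 nt: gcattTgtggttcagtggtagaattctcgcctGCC
GC tiRNA, 34 nt: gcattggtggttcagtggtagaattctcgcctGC
C35T tiRNA, 35 nt: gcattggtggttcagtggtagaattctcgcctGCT
G6T GC tiRNA, 34 nt: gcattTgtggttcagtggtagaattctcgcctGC
C35A tiRNA, 35 nt: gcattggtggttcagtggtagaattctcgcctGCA
A22G tiRNA, 35 nt: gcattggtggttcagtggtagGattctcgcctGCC
GCCc sequence, 36 nt: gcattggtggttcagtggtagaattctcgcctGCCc
GCCg sequence, 36 nt: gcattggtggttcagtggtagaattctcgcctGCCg
Neighbour outside the limit, 33 nt: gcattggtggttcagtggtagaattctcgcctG

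The table pairs no gene with a sequence. RefSeq lists 14 Gly-GCC tRNA genes in GRCm38.p6, the mm10 build that the submitters' processing notes name, each 71 bases long and spread over 7 chromosomes. Chromosome 1 holds 5 of them, chromosome 8 holds 3, chromosome 13 holds 2, and chromosomes 2, 3, 4 and 11 hold 1 each. In the GENCODE vM21 annotation 9 of the 14 lie outside any other gene, such as n-TGgcc3 at chr1:74816747-74816817. The other 5 lie inside a gene but in no exon, such as n-TGgcc11 at chr8:110630553-110630623, inside Vac14. Which of these genes a given fragment came from is not known from the table, and the 16 tiRNAs share most of their bases, so they are not independent of each other.

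The tiRNAs were a small share of the Gly-GCC reads. They took between 0.298% and 1.46% of the family's reads in a library, from 4055 to 17601 reads in all 16 together. Levels by length fell into steps: sequences from base 1 summed to 175967 RPM at 28 nt, 3519 RPM at 33 nt, 301 RPM at 34 nt, 2951 RPM at 35 nt and 18.1 RPM at 36 nt. Sequences tabulated as stopping on the first or the last anticodon base were thus far more abundant than those stopping on its middle base. Reads were 36 bases long, so a 36-nt sequence may be the start of a longer molecule. A 35-nt sequence stops 1 base short of the read length. No tiRNA reads on from GCC to A, the base that a 36-nt sequence lacking base 1 has there. Whether 35-nt sequences also come from longer molecules was not tested.

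Just inside and just outside the limits, the 34-nt GC tiRNA averaged 200.2 RPM, against 2244 RPM for the 33-nt neighbour printed above. A 33-nt neighbour with G6T averaged 763 RPM. The 4 sequences of 34 nt or more that lack base 1 averaged 71.5, 22.8, 8.68 and 7.01 RPM. The first of these is 36 nt long and reads 2 bases past the anticodon, and at the first of these the GCCc sequence has A36C and the GCCg sequence A36G relative to it.

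Most of the level lay in sequences tabulated as ending with the complete anticodon, although the molecules may be longer. The 5 sequences of 35 nt ending GCC made 84.1% of the tiRNAs' summed mean level. The 2 ending GC at 34 nt made 7.55%, the 4 of 35 nt with another last base 6.15%, the 3 of 34 nt with another last base 1.66% and the 2 of 36 nt 0.554%. In their bodies, 8 tiRNAs had the bases of the leading tiRNA and 72.0% of the level, 5 carried G6T and 27.0%, and T5G, A22G and T32C were found in 1 tiRNA each, at 0.545%, 0.245% and 0.178%.

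The G6T variant was found at every length from 27 to 35 nt, and its ratio to the unchanged sequence differed with length. It averaged 0.236 ± 0.020 at 28 nt and 0.340 ± 0.030 at 33 nt (SD, n = 12 libraries). It was 0.229 ± 0.028 at 34 nt and 0.397 ± 0.028 at 35 nt ending GCC (SD, n = 12). The 35-nt ratio, from 0.358 to 0.440, was above the 34-nt ratio of the same library in 12 of 12 libraries, and the ranges did not overlap, since the 34-nt ratio ran from 0.188 to 0.279. Whether a tRNA gene encodes the T at that position was not examined here.

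Last bases other than C were mostly T. The C35T tiRNA exceeded the C35A tiRNA in 12 of 12 libraries, and the 34-nt C34T sequence exceeded the C34A one in 12 of 12. At the middle anticodon base the share was fairly steady, with C34T at 14.4 to 27.7% of the GC tiRNA. At the last base it was not. The C35T tiRNA was 1.14% of the leading tiRNA in ATF7+/- CD replicate 1 and 15.7% in ATF7+/- CD replicate 3, 2 libraries of the same group.

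The leading tiRNA was the most abundant of the 16 in 12 of 12 libraries. It had 1053, 1218 and 1340 RPM in ATF7+/- LPD sperm, 1988, 1731 and 1140 RPM in ATF7+/- CD sperm, 3227, 3535 and 3118 RPM in wild-type LPD sperm, and 592, 1880 and 2431 RPM in wild-type CD sperm. All 3 wild-type LPD libraries were above the other 9, and the lowest value was that of wild-type CD replicate 1. The replicates lay closest in the wild-type LPD group, with a coefficient of variation of 6.57%, and farthest apart in the wild-type CD group, with 57.7%. The mean level was 1204 ± 144 RPM in ATF7+/- LPD sperm, 1620 ± 435 in ATF7+/- CD sperm, 3294 ± 216 in wild-type LPD sperm and 1634 ± 944 in wild-type CD sperm (SD, n = 3 each). The groups other than wild-type LPD lay within each other's spread.

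The G6T tiRNA, which differs from the leading tiRNA at 1 base, also had its lowest mean in ATF7+/- LPD sperm, at 467 ± 46.0 RPM, and its highest in wild-type LPD sperm, at 1365 ± 108 RPM (SD, n = 3 each). It had 425, 459 and 516 RPM in ATF7+/- LPD sperm, 861, 761 and 410 RPM in ATF7+/- CD sperm, 1298, 1489 and 1309 RPM in wild-type LPD sperm, and 220, 748 and 871 RPM in wild-type CD sperm. The wild-type LPD libraries were again the highest 3.

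The 34-nt GC tiRNA, which stops 1 base earlier, did not set the wild-type LPD libraries apart. It had 233, 252 and 237 RPM in ATF7+/- LPD sperm, 137, 148 and 256 RPM in ATF7+/- CD sperm, 213, 241 and 184 RPM in wild-type LPD sperm, and 91.1, 162 and 249 RPM in wild-type CD sperm. All 4 groups overlapped, and the 2 lowest libraries of each CD group were under all LPD libraries. The 34-nt G6T GC tiRNA had 52.4, 55.9 and 47.8 RPM in ATF7+/- LPD sperm, 29.6, 27.7 and 71.4 RPM in ATF7+/- CD sperm, 50.0, 60.2 and 49.1 RPM in wild-type LPD sperm, and 18.6, 34.2 and 63.6 RPM in wild-type CD sperm. Here, too, the CD groups held both the lowest and the highest values.

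Among the 35-nt tiRNAs with another last base, the spread was wider within the CD groups than within the LPD groups. The C35T tiRNA had 87.4, 163 and 126 RPM in ATF7+/- LPD sperm, 22.8, 25.7 and 179 RPM in ATF7+/- CD sperm, 152, 144 and 115 RPM in wild-type LPD sperm, and 33.6, 70.2 and 226 RPM in wild-type CD sperm. The C35A tiRNA had 34.8, 54.1 and 45.8 RPM in ATF7+/- LPD sperm, 10.6, 12.5 and 65.9 RPM in ATF7+/- CD sperm, 58.4, 51.8 and 39.1 RPM in wild-type LPD sperm, and 13.0, 28.3 and 89.5 RPM in wild-type CD sperm. For both, replicate 3 of each CD group was above all 6 LPD libraries and the other 4 CD libraries were below all 6. In ATF7+/- CD replicate 3, the 4 tiRNAs of 35 nt with another last base were the highest of their group, while 6 of the 7 that read GCC in full were the lowest.

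Rarer tiRNAs that read GCC in full again had their highest mean in wild-type LPD sperm. The GCCc sequence had 2.49, 5.24 and 5.63 RPM in ATF7+/- LPD sperm, 12.0, 8.49 and 5.0 RPM in ATF7+/- CD sperm, 26.3, 21.9 and 16.1 RPM in wild-type LPD sperm, and 2.80, 9.72 and 10.3 RPM in wild-type CD sperm. The A22G tiRNA had 3.93, 5.68 and 5.92 RPM in ATF7+/- LPD sperm, 6.81, 6.61 and 4.09 RPM in ATF7+/- CD sperm, 14.9, 17.4 and 11.3 RPM in wild-type LPD sperm, and 2.80, 7.61 and 8.95 RPM in wild-type CD sperm. For both, the wild-type LPD libraries were the highest 3. This did not hold for the T5G and T32C tiRNAs. Their 22.9 and 8.95 RPM in wild-type CD replicate 3 were above their lowest wild-type LPD values, 19.5 and 7.31 RPM. None of the 192 values of the tiRNAs was 0, and the lowest rested on 7 reads. The level that 3 reads stand for was 0.437 to 1.36 RPM by library. Such floors cover only the error of counting, because without molecular identifiers several reads can come from 1 molecule.

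Library totals ran from 2198744 to 6870039 reads. All 3 ATF7+/- LPD libraries, with at least 4828916 reads, were deeper than all 3 wild-type LPD libraries, with at most 2874170. Depth and genotype on LPD therefore cannot be told apart, although levels are scaled to the library total. Wild-type CD replicate 1 stood apart: it was the lowest of its group for 15 of the 16 tiRNAs, and Gly-GCC sequences that lack base 1 made 9.58% of its family reads, against 1.07 to 6.54% in the other 11 libraries. Its part in the results below was not tested beyond leaving it out.

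On LPD, ATF7+/- sperm had a lower summed level of the tiRNAs than wild-type sperm. Summed over all 16, they were at 2018, 2367 and 2477 RPM in ATF7+/- LPD sperm and at 5212, 5728 and 4968 RPM in wild-type LPD sperm. The groups did not overlap, and the ratio of the means was 0.431, from 2287 ± 240 RPM in ATF7+/- sperm and 5303 ± 388 RPM in wild-type sperm (SD, n = 3 each). In a bulk sample, fewer cells that carry a fragment and less of it per cell cannot be told apart.

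By edgeR's quasi-likelihood test on all 12 libraries with Benjamini-Hochberg adjustment over all 2971 sequences, 0 of the 16 tiRNAs passed 0.05 between ATF7+/- LPD and wild-type LPD sperm, where 0.202% of all sequences did. At an unadjusted p under 0.05 there were 6, where 17% of all sequences passed. The leading tiRNA had a log2 fold change of -1.45 (SE 0.40, edgeR adjusted p = 0.113), the G6T tiRNA -1.55 (SE 0.42, adjusted p = 0.113) and the A22G tiRNA -1.48 (SE 0.38, adjusted p = 0.113). The GCCc sequence had -2.24 (SE 0.46, edgeR adjusted p = 0.0708), the smallest p of the tiRNAs in this comparison.

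The number of calls changed with the fit. Fitted on the 6 LPD libraries alone, edgeR called 6 of the 16 tiRNAs, all lower in ATF7+/- sperm, where it called 12.5% of all sequences and 4.17% as lower. These were the leading tiRNA (edgeR adjusted p = 0.00132), the G6T tiRNA (0.00132), the GCCc sequence (0.00455), the A22G tiRNA (0.0106), the GCCg sequence (0.0269) and the T32C tiRNA (0.0284). DESeq2 on all libraries called 4, all lower, where it called 2.73% of all sequences and 1.78% as lower. By limma there were 0, with 1 call among all 2971 sequences. Without wild-type CD replicate 1, which is in neither group compared but adds to the shared spread, edgeR called 4, all lower, where it called 0.74% of all sequences and 0.471% as lower. Without wild-type CD replicate 3 it called 1, the GCCc sequence, where it called 1.01% of all sequences and 0.404% as lower.

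The values split by the end of the tabulated sequence. All 7 tiRNAs that read GCC in full, at 35 or 36 nt, were lower in every ATF7+/- LPD library than in every wild-type LPD library, where 14.2% of all sequences were. Their median log2 fold change was -1.45, from -2.24 to -0.49. The other 9, which stop on the middle base or carry another last base, had a median of -0.03, from -0.15 to 0.44. This grouping was made after the values were seen and has no test. The sequences of 35 and 36 nt lie at or next to the read length of 36 bases, so where their molecules end is not known.

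Among those 9, the 34-nt GC tiRNA was at 0.18 (SE 0.34, edgeR adjusted p = 0.838) and the C35T tiRNA at -0.12 (SE 0.74, adjusted p = 0.956). The 34-nt G6T GC tiRNA was at -0.03 (SE 0.42, edgeR adjusted p = 0.987) and the C35A tiRNA at -0.15 (SE 0.68, adjusted p = 0.941). The 34-nt C34A sequence was the only tiRNA higher in every ATF7+/- LPD library than in every wild-type one, where 21.3% of all sequences were. With all 12 libraries the standard errors of the C35T and C35A tiRNAs allow differences as large as that of the leading tiRNA. Fitted on the 6 LPD libraries alone, they were at -0.12 (SE 0.22, edgeR adjusted p = 0.740) and -0.14 (SE 0.21, adjusted p = 0.666), and the leading tiRNA was at -1.45 (SE 0.13).

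Ratios within a library restate the step between 34 and 35 nt from the levels given above and are no separate result. The 34-nt GC tiRNA per leading tiRNA was 0.221, 0.207 and 0.177 in ATF7+/- LPD sperm, 0.069, 0.0854 and 0.224 in ATF7+/- CD sperm, 0.0661, 0.0682 and 0.0591 in wild-type LPD sperm, and 0.154, 0.0863 and 0.102 in wild-type CD sperm. On LPD the genotypes did not overlap, and ATF7+/- CD replicate 3 was just above all ATF7+/- LPD libraries.

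The 33-nt neighbour showed no such separation. It had 3316, 1990 and 2533 RPM in ATF7+/- LPD sperm and 1733, 2368 and 2087 RPM in wild-type LPD sperm, and the groups overlapped. Of the 501 Gly-GCC sequences of 30 to 33 nt from base 1, edgeR called 1, as higher in ATF7+/- sperm, and their median log2 fold change was 0.57. The 440 of 29 nt or less had a median of 0.35 with 2 called, both higher. Over all 16 tiRNAs the median was -0.15, over the 219 sequences of 34 nt or more from other families -0.07, and over all 2971 sequences 0.11. In summed level, however, those 219 were also lower in every ATF7+/- LPD library, at 24527, 24246 and 25750 RPM, than in every wild-type LPD library, at 32083, 28946 and 32864 RPM. Their part in the difference of the tiRNAs was not tested.

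The effect of LPD in wild-type sperm used the same wild-type LPD libraries, so the comparisons share them. Here the tiRNAs summed to 5212, 5728 and 4968 RPM in wild-type LPD sperm and to 1032, 3045 and 4140 RPM in wild-type CD sperm. The groups did not overlap, and the ratio of the means was 1.94, from 5303 ± 388 RPM in LPD sperm and 2739 ± 1576 RPM in CD sperm (SD, n = 3 each). Without wild-type CD replicate 1 the ratio was 1.48. Gly-GCC sequences that lack base 1 moved the other way: they made 1.72, 2.22 and 2.29% of the family reads in wild-type LPD sperm and 9.58, 3.14 and 2.96% in wild-type CD sperm. Of these 126 sequences edgeR called 16, all lower in LPD sperm, with a median log2 fold change of -1.28, and their part in the difference was not tested.

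By edgeR's quasi-likelihood test with Benjamini-Hochberg adjustment, 0 of 16 tiRNAs passed between wild-type LPD and wild-type CD sperm, where 2.52% of all sequences did. At an unadjusted p under 0.05 there were 5, where 21.8% passed. DESeq2 called 3 as higher in LPD sperm, namely the G6T, GCCc and A22G sequences, where it called 11% of all sequences and 1.82% as higher. By limma there were 0, with 0 calls among all 2971 sequences. Without wild-type CD replicate 3, edgeR called 4 tiRNAs, all higher, where it called 19.4% of all sequences and 4.01% as higher.

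All 16 fold changes were positive in wild-type sperm, with a median of 0.47 on the log2 scale, against -0.10 over all sequences. That median hung on single CD libraries: it was 0.11 without wild-type CD replicate 1, 0.42 without replicate 2 and 1.35 without replicate 3. The leading tiRNA was at 1.01 (SE 0.39, edgeR adjusted p = 0.149), the G6T tiRNA at 1.16 (SE 0.41, adjusted p = 0.121), the A22G tiRNA at 1.20 (SE 0.39, adjusted p = 0.0936) and the GCCc sequence at 1.53 (SE 0.47, adjusted p = 0.0761). These 4 and the GCCg sequence were higher in every LPD library than in every CD library, where 8.45% of all sequences were. No tiRNA was lower in every LPD library, where 11% of all sequences were.

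Those that read GCC in full had a median of 1.01, from 0.48 to 1.53, and the other 9 a median of 0.32, from 0.15 to 0.49. The 34-nt GC tiRNA was at 0.35 (SE 0.34, edgeR adjusted p = 0.604) and the C35T tiRNA at 0.32 (SE 0.74, adjusted p = 0.853). The C35A tiRNA was at 0.19 (SE 0.69, edgeR adjusted p = 0.909). For the C35T and C35A tiRNAs the sign turned negative when wild-type CD replicate 1 was left out, and for the C35A tiRNA also without replicate 2. The 30- to 33-nt Gly-GCC sequences had a median of -0.28, with 6 called lower in LPD sperm by edgeR.

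In ATF7+/- sperm the summed tiRNAs of the 2 diets overlapped. They summed to 2018, 2367 and 2477 RPM on LPD and to 3153, 2792 and 2316 RPM on CD, a ratio of means of 0.831, from 2287 ± 240 RPM on LPD and 2754 ± 420 RPM on CD (SD, n = 3 each). By edgeR's quasi-likelihood test with Benjamini-Hochberg adjustment, 0 of 16 tiRNAs passed, where 0.101% of all sequences did. There were also 0 at an unadjusted p under 0.05, where 16.9% passed. DESeq2 called 0, with 45 among all 2971 sequences, and limma 0, with 0 among all.

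The leading tiRNA was at a log2 fold change of -0.43 on LPD in ATF7+/- sperm (SE 0.39, edgeR adjusted p = 0.542), the G6T tiRNA at -0.54 (SE 0.41, adjusted p = 0.464) and the GCCc sequence at -0.95 (SE 0.46, adjusted p = 0.305). The C35T tiRNA was at 0.75 (SE 0.74, edgeR adjusted p = 0.580). Of the 7 tiRNAs that read GCC in full 6 were negative, with a median of -0.43, while all 9 others were positive, with a median of 0.55, and over all sequences the median was 0.03. The GCCg sequence was the only tiRNA lower in every LPD library, where 8.25% of all sequences were, and no tiRNA was higher in every one, where 13% were.

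The difference between the diet effects, ATF7+/- minus wild type, was tested directly. By edgeR's quasi-likelihood test with Benjamini-Hochberg adjustment, 0 of 16 tiRNAs passed, and 0% of all sequences did. At an unadjusted p under 0.05 there were 6, all among those that read GCC in full, where 9.83% of all sequences passed. DESeq2 called 0 tiRNAs, with 3 among all 2971 sequences, and limma 0, with 0 among all. The leading tiRNA had -1.44 on the log2 scale (SE 0.55, edgeR adjusted p = 0.468), the G6T tiRNA -1.69 (SE 0.58, adjusted p = 0.468) and the GCCc sequence -2.48 (SE 0.65, adjusted p = 0.305). The 7 tiRNAs that read GCC in full had a median of -1.44 and the other 9 of 0.19, while over all sequences it was 0.16.

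On CD the genotypes had nearly equal means and a wide spread within groups. The tiRNAs summed to 3153, 2792 and 2316 RPM in ATF7+/- CD sperm and to 1032, 3045 and 4140 RPM in wild-type CD sperm. The ratio of the means was 1.01, from 2754 ± 420 RPM in ATF7+/- sperm and 2739 ± 1576 RPM in wild-type sperm (SD, n = 3 each), and leaving out 1 library at a time moved it between 0.766 and 1.35. By edgeR's quasi-likelihood test with Benjamini-Hochberg adjustment, 0 of 16 tiRNAs and 0% of all sequences passed. At an unadjusted p under 0.05 there were 0 tiRNAs, where 4.21% of all sequences passed. DESeq2 and limma each called 0 tiRNAs and 0 of all sequences. All 16 overlapped between the groups, where 1.21% of all sequences were entirely above and 2.73% entirely below.

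The leading tiRNA was at a log2 fold change of -0.01 in ATF7+/- over wild-type CD sperm (SE 0.39, edgeR adjusted p = 0.998). The C35A tiRNA had the smallest p on CD, at -0.60 (SE 0.70, edgeR adjusted p = 0.969). The spread of the wild-type CD libraries limits what this comparison can show.

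Over both genotypes together, 0 of 16 tiRNAs passed between LPD and CD sperm by edgeR's quasi-likelihood test with Benjamini-Hochberg adjustment, although 11.9% of all sequences did. There were 0 at an unadjusted p under 0.05, where 27% of all sequences passed. DESeq2 called 0, with 530 among all 2971 sequences, and limma 0, with 0 among all. Without ATF7+/- CD replicate 3, edgeR called 3, all higher in LPD sperm, where it called 26.9% of all sequences and 8.52% as higher. Fold changes of the tiRNAs ran from -0.05 to 0.58 on the log2 scale. Over both diets together, 0 of 16 passed between ATF7+/- and wild-type sperm by the same edgeR test, where 0.101% of all sequences did. At an unadjusted p under 0.05 there were 4, where 11.3% of all sequences passed. DESeq2 called 0, with 49 among all 2971 sequences, and limma 0, with 3 among all. Without wild-type CD replicate 1, edgeR called 1, the leading tiRNA, as lower, where it called 0.539% of all sequences and 0.471% as lower. Their fold changes ran from -1.0 to 0.26, with a median of -0.70 for the 7 that read GCC in full and 0.05 for the other 9.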

How the data were processed

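The deposited table gives, for each unique sequence and library, raw read counts and normalised values. The authors scaled the counts to RPM, reads scaled to a common library total. Dividing a deposited count by its RPM value gave back each total, of which the table holds 97.5 to 98.2%. A NEBNext kit and a NextSeq 500 were used, per the labels' protocols. The build was mm10, per the submitters' processing notes. Which aligner and counter were used is not given in the sources used here.

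Family membership and the start base came from edlib 1.3.9.post1. Counts of all 2971 sequences were tested with edgeR 4.0.16 (R 4.3.3), quasi-likelihood, 4 group means, the recovered totals as library sizes, two-sided, with Benjamini-Hochberg adjustment over the whole table and a threshold of 0.05. A mean of at least 1 RPM was required, which removed 0 sequences. The biological coefficient of variation was 0.326. The fit was tested on simulated data. DESeq2 1.42.0 and limma 3.58.1 on log2(RPM + 1), other scalings, other sets of libraries and replicate blocks were alternatives. Sums over the tiRNAs have no test. The 16 tiRNAs and the lists were chosen with earlier results of these data known. Values by library are given for the 6 most abundant tiRNAs and for the tiRNA with the smallest p in each comparison. Other values are given as counts and ranges, with the GCCg, T5G, T32C and C34A sequences named after their values were seen.

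Same-numbered libraries of the CD groups had correlations of 0.598, 0.174 and 0.559 over sequences in their deviations from group means. Differently numbered CD libraries ran from -0.631 to 0.243, and on LPD 1 such pair reached 0.538. In no other comparison were all same-numbered pairs positive. The labels state no pairing, and the main edgeR fit used none. A replicate block was fitted only as an alternative. Replicates of each group differed by more than counting noise, so each library was counted once.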

Additional observations from a re-analysis of the deposited data

Results flagged for a closer look

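The GCCg sequence, 36 nt, was the only tiRNA whose diet groups did not overlap in either genotype, with differences of opposite sign. Opposite signs alone were not particular to it. Of the 7 tiRNAs that read GCC in full, 6 had a positive fold change on LPD in wild-type sperm and a negative one in ATF7+/- sperm. It had 5.38, 5.97 and 5.48 RPM in ATF7+/- LPD sperm, all below the 6.27, 6.23 and 7.28 RPM of ATF7+/- CD sperm, and 9.22, 16.0 and 10.9 RPM in wild-type LPD sperm, all above the 2.80, 8.03 and 7.95 RPM of wild-type CD sperm. In ATF7+/- sperm the nearest values of the 2 diets, 5.97 and 6.23 RPM, rested on 41 and 33 reads. The diet effect there was -0.22 on the log2 scale (SE 0.36, edgeR adjusted p = 0.754). The diet effect in ATF7+/- minus that in wild type was -1.20 on the log2 scale (SE 0.52), and it did not pass by edgeR's quasi-likelihood test with Benjamini-Hochberg adjustment (adjusted p = 0.476).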

How the results depend on the processing

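With all 12 libraries, edgeR called 0 tiRNAs in each of the 7 comparisons. Between ATF7+/- and wild type on LPD, it called 1 with TMM scaling and 1 with DESeq2's size factors, in both the GCCc sequence and with 11 calls among all 2971 sequences, and 6 with only the groups compared, with 372 among all. DESeq2 called 4 there (81 among all) and 3 for diet in wild type (327 among all). Leaving out 1 library at a time gave 0 to 4 calls for genotype on LPD (4 without wild-type CD replicate 1, with 22 among all, and 1 without wild-type CD replicate 3, with 30 among all), 0 to 4 for diet in wild type (4 without wild-type CD replicate 3, with 577 among all), 0 to 3 for diet over both genotypes (3 without ATF7+/- CD replicate 3, with 798 among all) and 0 to 1 for genotype over both diets (1 without wild-type CD replicate 1, with 16 among all), and 0 in the other 3 comparisons. In those 3, these fits called at most 71 among all for diet in ATF7+/- sperm, 39 for the interaction and 1 for genotype on CD. A filter at a mean of 10 RPM kept 11 of the 16 tiRNAs among 1817 sequences. It left out the A22G, GCCg and T32C sequences, which the fit of the 6 LPD libraries alone had called. With it, 0 of the 11 were called in each comparison, with 8 among all for genotype on LPD and 182 for diet over both genotypes. A fit on only the groups compared has no value for the interaction or for the comparisons over both genotypes or both diets, which use all groups.

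With the replicate block on all libraries, 0 tiRNAs were called in each comparison. Among all sequences it gave 356 for diet over both genotypes, 80 for diet in wild type and 0 to 3 in the others. In a fit of only the groups compared, the replicate block gave 4 for genotype on LPD, all lower in ATF7+/- sperm (97 among all, 43 of them lower). It gave 3 for diet in ATF7+/- sperm, all with another last base and higher on LPD (260 among all, 49 of them higher). For diet in wild type and for genotype on CD it gave 0, with 0 and 1 among all. The main fit treated no numbers as paired.

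The direction of the leading tiRNA on CD, at -0.01, was not stable: it was 0.025 with the family total as library size, 0.087 with the replicate block on all libraries, 0.16 with it on only the groups compared, 0.18 with limma, and -0.41 to 0.39 when 1 library was left out. The 34-nt GC tiRNA turned to -0.048 for genotype on LPD with the family total, a scaling that put the median of all sequences at -0.11, against 0.11 with the library totals. With 1 library left out, these log2 fold changes took both signs: the C35T tiRNA for diet in wild type (-0.12 to 1.41) and for genotype on LPD (-0.36 to 0.081), the C35A tiRNA for diet in wild type (-0.25 to 1.29), for genotype on LPD (-0.30 to 0.0054) and for genotype on CD (-1.92 to 0.48), and the 34-nt G6T GC tiRNA for genotype on LPD (-0.085 to 0.071). The leading tiRNA kept its sign for genotype on LPD (-1.54 to -1.36) and for diet in wild type (0.61 to 1.41). Of 539 alternative values for 25 fold changes of single tiRNAs, 496 kept direction and side of the threshold, 27 passed it anew and 16 changed sign, and the cause was not tested. The ratios of summed tiRNAs ranged over 0.413 to 0.457 for genotype on LPD, 1.48 to 2.60 for diet in wild type, 0.770 to 0.896 for diet in ATF7+/- sperm and 0.766 to 1.35 for genotype on CD when 1 library was left out.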

Other observations

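Sequences that stop on the first anticodon base also carried other last bases, most often A, which takes the place of G there. At 33 nt the G33A sequence was 9.86% ± 1.23 of the printed 33-nt neighbour (SD, n = 12 libraries), G33T 2.37% ± 0.41 and G33C 0.538% ± 0.131. G33A was above G33T in 12 of 12 libraries. With G6T in the body, the same shares were 9.71% ± 1.20, 2.32% ± 0.54 and 0.534% ± 0.169. At the middle anticodon base, C34T was 18.6% ± 3.4 of the GC tiRNA and C34A 4.83% ± 1.03. At the last anticodon base the shares varied most between libraries, with C35T at 6.72% ± 4.58 and C35A at 2.51% ± 1.61 of the leading tiRNA.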
